A study of Mus musculus with 92 samples.

Results

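The spliceosome core genes described here are 51 genes listed by their products. They encode Sm and LSm proteins and proteins of the U1 and U2 particles and of the U4/U6.U5 tri-snRNP. On the same list are 4 proteins of the Prp19 complex and 3 of the U11/U12 particle. The list does not hold every protein of these particles, and some others, such as Snu13, are given apart below. The rule uses no expression value, but the list was chosen with earlier results of these data known. The genes make up 51 of the 56953 genes counted, and all 51 passed the filter on low counts in both assays. They were followed in mouse embryonic stem cells of the B6 line, grown with LIF, PD0325901 and CHIR99021. In these cells both alleles of a gene carried a dTAG degron, a protein tag that lets the compound dTAG-13 recruit the fused protein for degradation. The genotypes were GabpadTAG/dTAG (the GABPA line), Gabpb1dTAG/dTAG (the GABPB1 line) and Gabpb1/b2dTAG/dTAG (the GABPB1/GABPB2 line), and every group, controls included, carried the tag of its line. The sources used here do not say whether a line is 1 clone. Cells received 500 nM dTAG-13 or its solvent DMSO. RNA-seq of polyadenylated RNA covered the 3 lines at 12 h, and SLAM-seq, in which RNA made in the presence of 500 µM 4-thiouridine is recognised by T-to-C conversions in its reads, covered the GABPA line at 1, 2, 4 and 12 h. Each group had 2 libraries, called biological duplicates in the labels. The DMSO libraries of 2 h also served as controls of the 4 h samples.

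The spliceosome removes introns and is built from small nuclear ribonucleoproteins (snRNPs), in which a short nuclear RNA carries a set of proteins. Sm proteins form a ring around the U1, U2, U4 and U5 RNAs, LSm proteins form a ring at the end of the U6 RNA, and U1 and U2 recognise the start of the intron and its branch point before the tri-snRNP joins. GABPA is an ETS-family transcription factor that binds DNA, and GABPB1 and GABPB2 are partner subunits that do not bind DNA themselves.

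These genes were expressed strongly, with a median of 163 TPM (a level scaled to transcript length and library size) in DMSO-treated GABPA-line cells, against 14.4 TPM for the 12185 genes with at least 1 TPM. The lowest was Prpf39 at 10.0 TPM and the highest Snrpe at 675 TPM. RNA-seq libraries held 15.96 to 32.09 M counts, and SLAM-seq libraries 11.48 to 30.69 M reads, of which 0.937 to 4.249 M carried conversions. The 12 stem cell markers summed to 10600 to 12400 TPM in every RNA-seq library, mostly from Dppa5a (7337 to 8756 TPM). Dppa3 ranged from 3.28 to 121.7 TPM over the libraries. Of the 12, 3 were called lower and 4 higher in the GABPA line at 12 h, where 21.9% and 24.6% of all tested genes were. The 8 feeder fibroblast markers summed to 2.72 to 7.33 TPM, with Lum at 0 in all. The 8 trophoblast and endoderm markers summed to 13 to 15.4 TPM in the GABPB1 line and 33.2 to 50.2 TPM in the other lines, mostly from Krt8. In the GABPA line at 12 h, 12 of 12 p53 target genes were called higher (median log2 change 1.49). The part of these changes in the results below was not tested. Degradation acts on protein, so the mRNA of the tagged gene does not check the labels. Gabpa mRNA was at 20.1 and 20.5 TPM in DMSO and 31.5 and 32.1 TPM after dTAG-13 in the GABPA line. In DMSO it was higher in the other lines, at 57.9 and 58.3 TPM (GABPB1) and 58.9 and 63.9 TPM (GABPB1/GABPB2). The part of this difference in the responses below was not tested. The lines also differed before treatment. In DMSO, 13 of the 51 genes were more than 1.5 times as high in the GABPA line as in the GABPB1 line and 5 more than 1.5 times lower, where 9.89% and 26.9% of 11642 expressed genes were. Whether the line or the preparation of its libraries sets this cannot be told apart.

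Promoter windows were searched for letters that an ETS factor can bind. A window, taken from RefSeq (GRCm38.p6, an older build than the mm39 of the tables), runs from 250 bases before the annotated transcript start to 50 bases after it, and was searched for CCGGAAG on both strands. RefSeq windows were matched for 41 of the 51 genes, so that Snrpb, Sf3b4, Snrnp40, Prpf18, Lsm4, Snrpd1, Eftud2 and Ddx23, all called in the GABPA line, were not searched, nor were Sf3b5 and U2af2. Of the 41, 16 held the motif (39.0%), against 8.86% of all 32851 windows and 18.9% of the 11322 genes that had a window and were tested. Of the 16 genes with the motif, 12 were called lower, 2 higher and 2 neither in the GABPA line at 12 h, with a median log2 change of -0.49. Of the 25 without it, 11 were called lower, 5 higher and 9 neither (median -0.09). Over all tested genes, 50.6% of those with the motif and 17.8% of those without it were called lower, so a larger share with the motif was also seen over all genes. In newly made RNA at 12 h the share with the motif was not larger. There 6 of the 16 and 11 of the 25 were called lower, against 18.3% of all tested genes. In RNA-seq of the GABPB1/GABPB2 line 8 of the 16 and 2 of the 25 were, against 9.26%. These differences were not tested. The motif is a description of letters, not of a bound site, and its absence says only that these letters are not in the window.

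The windows below are, among the called genes that have a window, those of the 6 with the motif and the 2 without it that had the smallest p-values in the GABPA line, each printed along its gene with the motif in capitals. They are Sf3b6 (chr12:4817358-4817657, plus strand), Snrnp200 (chr2:127208136-127208435, plus strand), Snrnp27 (chr6:86684442-86684741, minus strand), Snrpe (chr1:133610231-133610530, minus strand), Snrpc (chr17:27839837-27840136, plus strand) and Prpf6 (chr2:181601069-181601368, plus strand) with the motif, and Lsm2 (chr17:34981604-34981903, plus strand) and Plrg1 (chr3:83055288-83055587, plus strand) without it.
Sf3b6: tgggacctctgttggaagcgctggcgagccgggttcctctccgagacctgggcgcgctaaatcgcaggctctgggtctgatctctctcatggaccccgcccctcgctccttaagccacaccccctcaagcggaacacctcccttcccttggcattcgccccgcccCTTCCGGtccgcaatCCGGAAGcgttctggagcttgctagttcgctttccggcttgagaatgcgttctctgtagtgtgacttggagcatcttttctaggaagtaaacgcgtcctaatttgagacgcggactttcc
Snrnp200: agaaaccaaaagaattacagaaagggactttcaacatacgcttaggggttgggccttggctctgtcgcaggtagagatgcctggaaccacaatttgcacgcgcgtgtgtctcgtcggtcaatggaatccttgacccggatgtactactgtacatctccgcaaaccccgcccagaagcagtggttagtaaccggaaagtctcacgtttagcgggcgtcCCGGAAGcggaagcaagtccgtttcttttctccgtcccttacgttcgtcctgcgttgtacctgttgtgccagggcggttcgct
Snrnp27: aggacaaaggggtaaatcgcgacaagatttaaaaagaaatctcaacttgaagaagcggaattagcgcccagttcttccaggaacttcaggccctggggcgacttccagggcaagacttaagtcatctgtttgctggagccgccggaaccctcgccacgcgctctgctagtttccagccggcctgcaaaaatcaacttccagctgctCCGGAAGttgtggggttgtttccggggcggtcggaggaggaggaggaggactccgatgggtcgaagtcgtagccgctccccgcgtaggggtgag
Snrpe: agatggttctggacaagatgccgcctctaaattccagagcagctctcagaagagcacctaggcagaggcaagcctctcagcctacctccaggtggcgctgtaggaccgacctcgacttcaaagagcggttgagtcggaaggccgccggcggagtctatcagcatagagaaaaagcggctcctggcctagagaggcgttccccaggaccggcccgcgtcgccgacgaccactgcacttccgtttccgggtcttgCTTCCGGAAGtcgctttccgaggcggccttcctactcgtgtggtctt
Snrpc: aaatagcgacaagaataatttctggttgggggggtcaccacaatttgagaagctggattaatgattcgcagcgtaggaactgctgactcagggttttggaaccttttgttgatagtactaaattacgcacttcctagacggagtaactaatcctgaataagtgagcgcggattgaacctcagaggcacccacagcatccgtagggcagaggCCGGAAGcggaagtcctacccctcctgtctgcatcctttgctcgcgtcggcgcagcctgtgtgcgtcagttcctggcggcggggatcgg
Prpf6: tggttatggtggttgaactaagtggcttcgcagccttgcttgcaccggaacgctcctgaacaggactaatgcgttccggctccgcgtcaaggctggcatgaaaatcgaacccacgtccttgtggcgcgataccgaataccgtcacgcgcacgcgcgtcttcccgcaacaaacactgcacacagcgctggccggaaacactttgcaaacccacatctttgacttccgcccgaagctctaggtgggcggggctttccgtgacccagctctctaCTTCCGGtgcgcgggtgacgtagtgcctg
Lsm2: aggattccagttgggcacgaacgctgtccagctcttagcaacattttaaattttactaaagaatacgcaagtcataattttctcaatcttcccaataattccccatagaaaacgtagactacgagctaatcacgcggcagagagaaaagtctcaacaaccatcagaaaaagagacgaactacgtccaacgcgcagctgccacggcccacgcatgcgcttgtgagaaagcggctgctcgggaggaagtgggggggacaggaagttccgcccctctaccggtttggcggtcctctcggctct
Plrg1: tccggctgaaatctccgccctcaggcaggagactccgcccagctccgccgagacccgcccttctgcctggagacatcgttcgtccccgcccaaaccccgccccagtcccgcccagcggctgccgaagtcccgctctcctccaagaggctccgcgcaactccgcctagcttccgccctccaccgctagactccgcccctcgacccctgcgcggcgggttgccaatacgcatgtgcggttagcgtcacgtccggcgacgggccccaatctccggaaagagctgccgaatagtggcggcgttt
Sf3b6 held 2 copies on opposite strands, with their middle bases at -82 and -67 from the start, and Snrpe held 2 overlapping copies at 6 and 9 bases after it. In Snrnp200, Snrpc and Snrnp27 the single copy lay at -30, -36 and -41, and in Prpf6 at 24 bases after the start.

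After 12 h of dTAG-13 in the GABPA line, 28 of the 51 genes had fallen, 10 had risen and 13 were not called (adjusted p under 0.05, edgeR's quasi-likelihood test, p-values adjusted by Benjamini and Hochberg's method across the 16396 genes tested). The background in this comparison was high: 21.9% of all tested genes were called lower and 24.6% higher. The median log2 change of the 51 genes was -0.22, against 0.06 over all genes. By role, 5 of 7 Sm genes, 2 of 4 U1 genes, 8 of 13 U2 genes, 8 of 13 tri-snRNP genes, 3 of 7 LSm genes and 2 of 4 Prp19-complex genes fell, while none of the 3 U11/U12 genes did. Changes below are log2 fold changes of dTAG-13 over DMSO with their standard errors (SE, n = 2 libraries in each group). Levels are CPM, counts scaled to library size, in replicates 1 and 2. Genes with levels in every library were mostly picked from the called genes by smallest p-value. Groups that lie apart without overlap therefore follow from that choice and add no evidence. The share of all tested genes whose groups lie apart was not counted. In bulk libraries fewer cells with an RNA and less of it per cell cannot be told apart, and the level of the tagged proteins was not analysed here. P-values set a difference of group means against the spread between duplicate libraries, estimated over all groups of the assay. They do not cover variation between clones of a line.

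**Figure D1:**
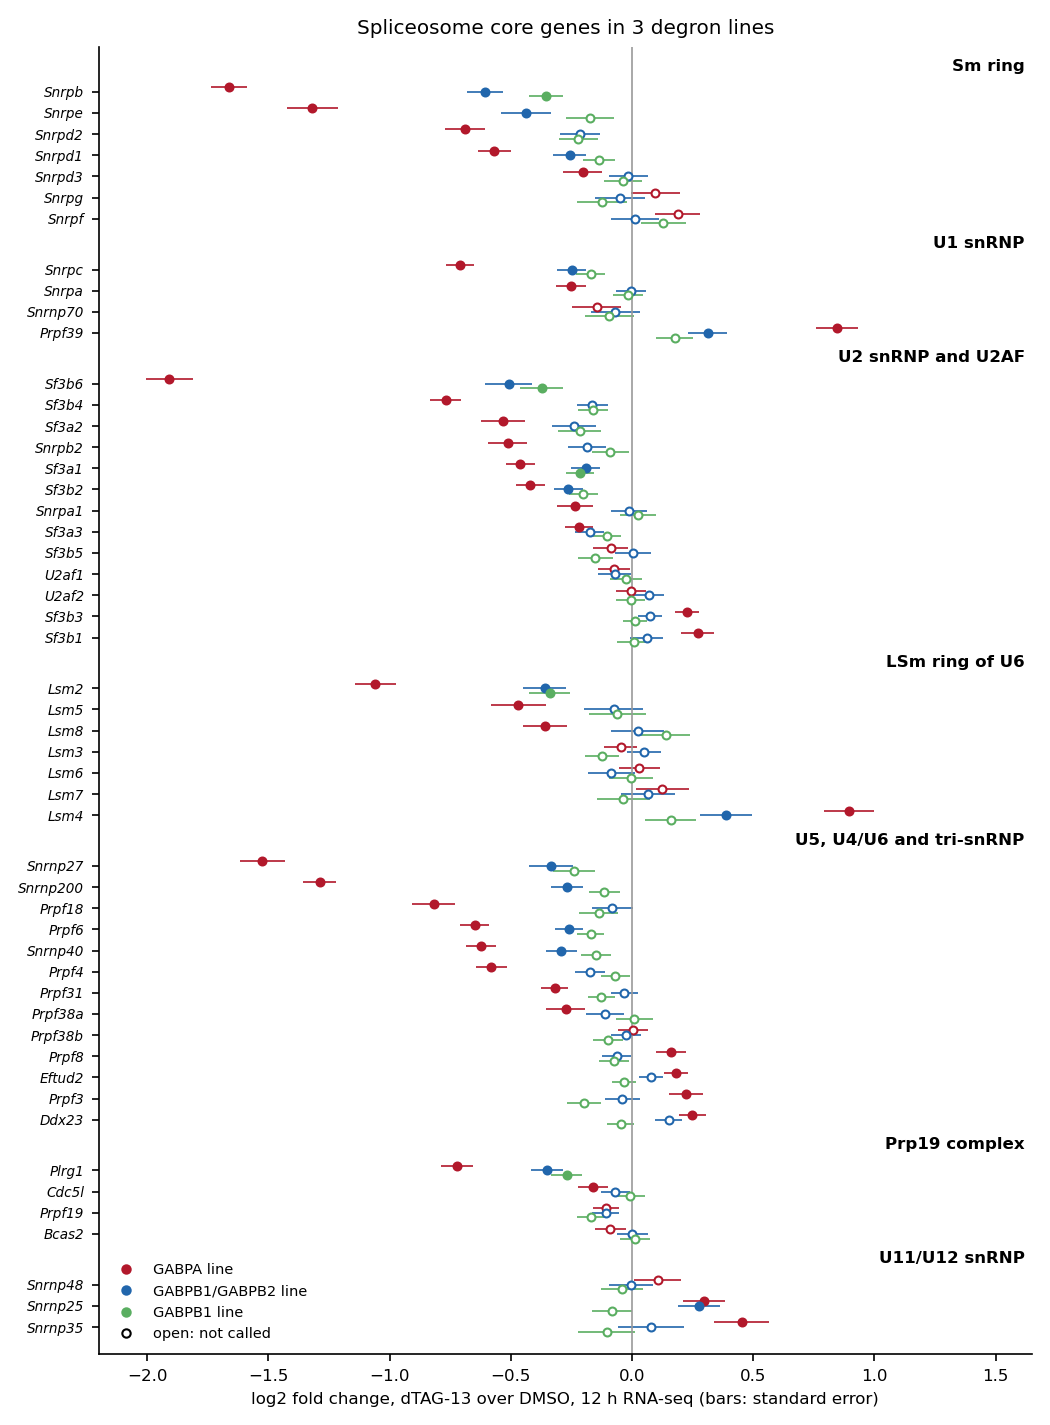
RNA-seq response of each of the 51 genes at 12 h, by role and by degron line; the x axis is the log2 fold change of dTAG-13 over DMSO, points are estimates from 2 libraries against 2, bars are standard errors, and filled points were called. The red points of the GABPA line reach -1.91 (Sf3b6) on the left and 0.90 (Lsm4) on the right, and the blue and green points of the other lines lie closer to 0 for both.

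The Sm ring split. Snrpb encodes SmB, and its mRNA was at 359 and 375 CPM with DMSO against 118 and 114 CPM with dTAG-13. Snrpe, which encodes SmE, was at 137 and 128 CPM with DMSO against 47.3 and 59.0 CPM with dTAG-13. Both fell below their DMSO libraries without overlap, Snrpb by 1.66 ± 0.0745 (adjusted p = 1.29e-11) and Snrpe by 1.32 ± 0.105 (adjusted p = 2e-08). Snrpd2 (SmD2) stood at 233 and 235 CPM against 144 and 147 CPM, a change of -0.69 ± 0.0829 (adjusted p = 2.91e-06). Snrpd1 (SmD1) stood at 148 and 142 CPM against 96.8 and 99.2 CPM (-0.57 ± 0.0662, adjusted p = 2.02e-06). Snrpd3 (SmD3) fell by 0.20 ± 0.0787, the smallest of the 5 falls (adjusted p = 0.0431), a call that ended without DMSO replicate 1 (adjusted p = 0.236), DMSO replicate 2 (0.05) or dTAG-13 replicate 1 (0.261). The partners of SmE in the ring, SmF and SmG, did not follow it: Snrpf was at 172 and 184 CPM with DMSO and 204 and 201 CPM after dTAG-13 (0.19 ± 0.0927, adjusted p = 0.11). Snrpg changed by 0.10 ± 0.101 (adjusted p = 0.464). The mRNAs of this ring, whose proteins assemble in equal numbers, thus changed unequally. Snrpb has a close paralog, Snrpn, and 3.01% of its SLAM-seq reads mapped to more than 1 place. For Snrpd2 this was 8.83% and for Snrpg 12.5%, which makes the SLAM-seq counts of these genes less certain. Multiple mapping of RNA-seq reads was not measured here, for these or the genes below.

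Among U1 genes, Snrpc fell and Prpf39 rose. Snrpc encodes U1-C, which helps U1 to hold the start of the intron, and was at 234 and 224 CPM with DMSO and at 140 CPM in both dTAG-13 libraries (-0.71 ± 0.0589, adjusted p = 3.29e-08). Snrpa (U1-A) fell by 0.25 ± 0.0628, and Snrnp70, another U1-specific protein, was not called (-0.15 ± 0.102, adjusted p = 0.263). Prpf39, the counterpart of a yeast U1 protein, was at 32.0 and 27.9 CPM with DMSO against 53 and 54.5 CPM with dTAG-13, every treated library above every control (0.85 ± 0.087, adjusted p = 4.49e-07). Prpf39 shares 963 bases with Fkbp3 on the other strand, a gene at 406 TPM. As the sources used here do not give the strand setting of the counting, reads of the pair cannot be told apart. Fkbp3 was not called in RNA-seq (0.04, adjusted p = 0.732) and was called lower in converted reads at 12 h (-0.53, adjusted p = 0.0169).

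In the U2 particle the largest fall was that of Sf3b6, whose product lies next to the branch point of the intron. It was at 66.5 and 62.5 CPM with DMSO against 15.8 and 18.5 CPM with dTAG-13, a fall of 1.91 ± 0.0972 (adjusted p = 6.45e-11), the largest of the 51 genes in this comparison. Sf3b4, another subunit of the SF3B complex, was at 232 and 241 CPM with DMSO against 144 and 134 CPM with dTAG-13 (-0.77 ± 0.0631, adjusted p = 2.79e-08). Snrpb2 (U2-B″) was at 65.9 and 60.9 CPM against 41.4 and 47.4 CPM (-0.51 ± 0.0811, adjusted p = 5.96e-05). None of these 3 genes had overlapping groups. Sf3a1, which joins SF3A to U2, stood at 290 and 311 CPM against 228 and 209 CPM (-0.46 ± 0.0606, adjusted p = 8.34e-06). Sf3b2, which binds near the branch site, stood at 489 and 503 CPM against 377 and 365 CPM (-0.42 ± 0.0597, adjusted p = 1.91e-05). Sf3a2, Snrpa1 and Sf3a3 also fell, by 0.53, 0.24 and 0.22, of which Snrpa1 had an adjusted p of 0.086 without DMSO replicate 1 and 0.199 without dTAG-13 replicate 1. The 2 largest SF3B subunits moved the other way: Sf3b1, the scaffold of SF3B, rose by 0.27 ± 0.0689 (adjusted p = 0.0038) and Sf3b3 by 0.23 ± 0.05 (adjusted p = 0.00126). Sf3b5 and the intron-end readers U2af1 and U2af2 were not called, with changes of -0.09, -0.07 and -0.005. Of the SLAM-seq reads of U2af2 and Sf3b4, 60.6% and 29.9% mapped to more than 1 place.

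In the tri-snRNP, Snrnp27 and Snrnp200 fell most. Snrnp27, a small protein of the tri-snRNP, was at 42.0 and 44.9 CPM with DMSO against 14.3 and 15.9 CPM with dTAG-13 (-1.52 ± 0.0934, adjusted p = 6.77e-10). Snrnp200, the helicase Brr2 that unwinds U4 from U6, was at 319 and 355 CPM with DMSO against 144 and 132 CPM with dTAG-13 (-1.29 ± 0.0673, adjusted p = 8.92e-11). Treated and control libraries of both genes were far apart. Prpf18, a factor of the second step of splicing, was at 62.1 and 51.4 CPM against 32.1 CPM in both treated libraries (-0.82 ± 0.0884, adjusted p = 7.98e-07). Prpf6, which bridges U5 and U4/U6, was at 147 and 150 CPM against 97.6 and 91.7 CPM (-0.65 ± 0.0596, adjusted p = 1.15e-07). Snrnp40, a WD-repeat protein of U5, was at 189 and 191 CPM against 126 and 120 CPM (-0.62 ± 0.0618, adjusted p = 2.82e-07). These 3 genes had no overlap between groups either. Of the SLAM-seq reads of Snrnp40, 12.8% mapped to more than 1 place. Prpf4, a U4/U6 protein, was at 109 and 112 CPM against 73.2 and 74.9 CPM (-0.58 ± 0.0627, adjusted p = 8.02e-07). Prpf31, which binds the U4 RNA, fell by 0.32 and Prpf38a by 0.27. The other core partners of Snrnp200 in U5 rose slightly: Eftud2, a GTPase, by 0.18 ± 0.0499 and Prpf8, the central scaffold, by 0.16 ± 0.0615. Ddx23, the helicase Prp28, rose by 0.25 ± 0.0551 and Prpf3, a U4/U6 protein, by 0.22 ± 0.07, and Prpf38b was not called (0.004). The smaller calls rested on single libraries: without DMSO replicate 1, Prpf8 (adjusted p = 0.368), Eftud2 (0.0643) and Prpf38a (0.148) were not called, and Prpf3 was not called without dTAG-13 replicate 1 (0.258) or DMSO replicate 2 (0.122), nor Prpf8 without dTAG-13 replicate 1 (0.0884) or 2 (0.115).

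**Figure D2:**
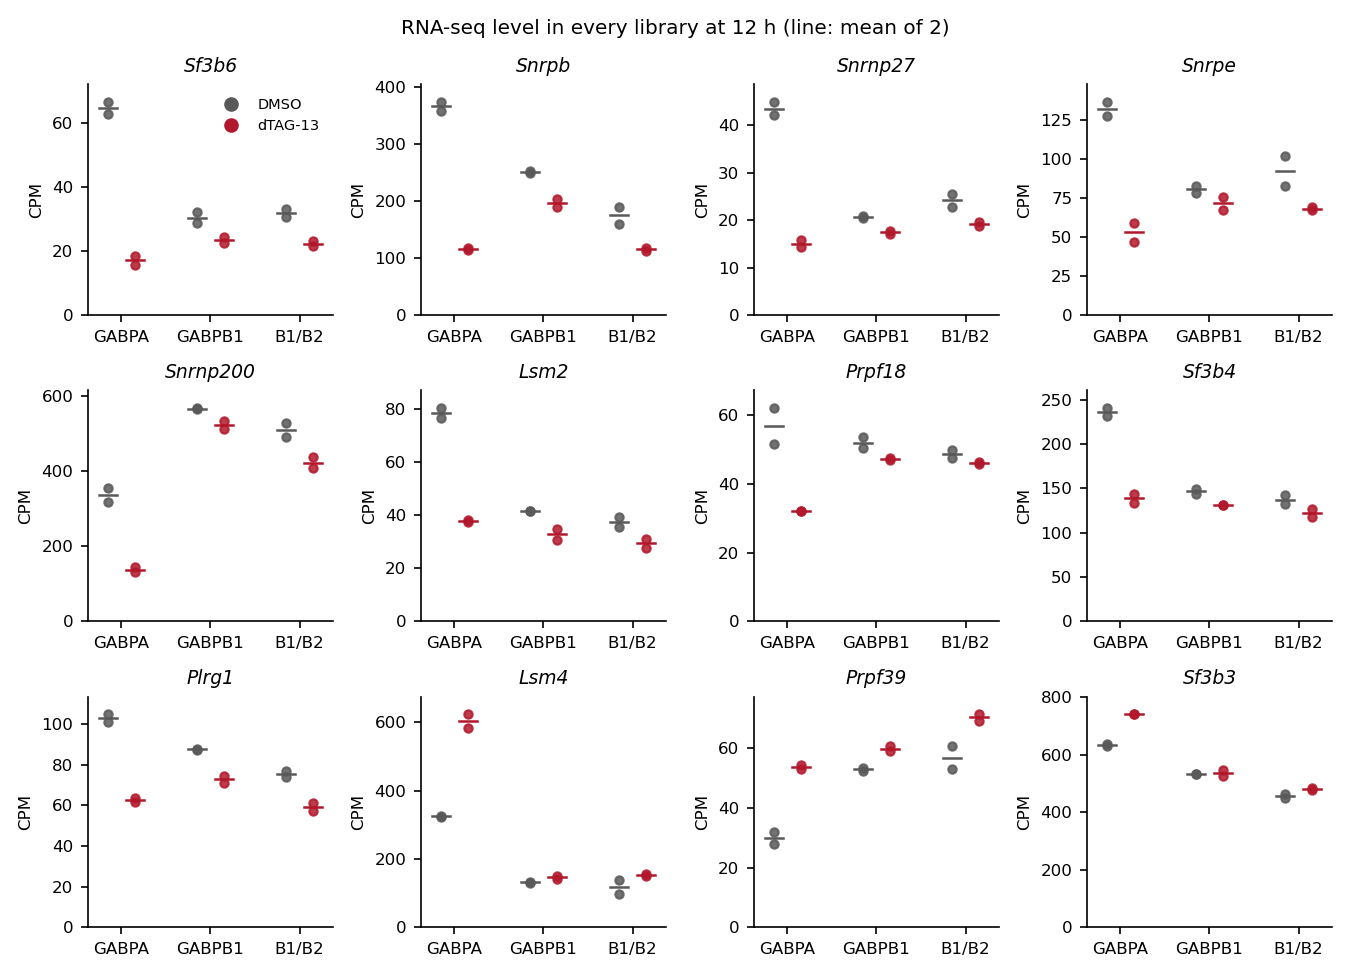
RNA-seq level (CPM, linear axis from 0) of 12 of the genes in every 12 h library, DMSO in grey and dTAG-13 in red for the GABPA, GABPB1 and GABPB1/GABPB2 (B1/B2) lines; points are libraries and short lines the mean of 2. Sf3b6 drops from 66.5 and 62.5 to 15.8 and 18.5 CPM in the GABPA line, and starts lower, at 28.8 to 33.0 CPM, in DMSO of the other lines.

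The LSm ring changed in both directions. Lsm2 was at 76.6 and 80.5 CPM with DMSO against 38.0 and 37.4 CPM with dTAG-13 (-1.06 ± 0.0856, adjusted p = 2.36e-08). Lsm4 was at 322 and 327 CPM with DMSO against 625 and 582 CPM with dTAG-13, the largest rise of the 51 genes (0.90 ± 0.104, adjusted p = 1.98e-06). The ranges of these groups did not overlap. Lsm5 and Lsm8 fell by 0.47 and 0.36, but missed the threshold without DMSO replicate 1 (adjusted p = 0.0555 and 0.0641) and without dTAG-13 replicate 1 (0.0533 and 0.0553). Lsm3, Lsm6 and Lsm7 were not called, with changes of -0.05, 0.03 and 0.125. Multiple mapping touched 47.5% of the SLAM-seq reads of Lsm5 and 63.6% of those of Lsm7, so their SLAM-seq counts are uncertain. For RNA-seq it was not measured.

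Of the Prp19 complex, which activates the assembled spliceosome, Plrg1 was at 105 and 101 CPM with DMSO against 61.8 and 63.4 CPM with dTAG-13 (-0.72 ± 0.0663, adjusted p = 1.1e-07), with no overlap. Its partner Cdc5l fell by 0.16 ± 0.0617 (adjusted p = 0.0428), a call that ended without DMSO replicate 1 (adjusted p = 0.0779), DMSO replicate 2 (0.161) or dTAG-13 replicate 1 (0.233). Neither Prpf19, the ubiquitin ligase, nor Bcas2 was called (-0.11 and -0.09). Of the SLAM-seq reads of Cdc5l, 8.77% mapped to more than 1 place. Of the U11/U12 proteins, which act on the minor class of introns, Snrnp35 rose by 0.45 ± 0.115 and Snrnp25 by 0.30 ± 0.0863, while Snrnp48 was not called (0.11). For Snrnp25 the adjusted p was 0.0578 without DMSO replicate 1 and 0.0932 without dTAG-13 replicate 1.

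In the lines tagged on the partner subunits, fewer of these genes were called. In the GABPB1/GABPB2 line at 12 h, 13 genes fell and 3 rose, where 9.26% of all tested genes were called lower and 3.53% higher, and the median change was -0.07 against 0.01 over all genes. All 13 were among the 28 that fell in the GABPA line (46.4% of the 28), and the 3 that rose, Lsm4, Prpf39 and Snrnp25, were among its 10. The overlap of the lines over all tested genes was not counted. Snrpb was at 191 and 161 CPM with DMSO against 113 and 119 CPM with dTAG-13 (-0.61 ± 0.0736, adjusted p = 1.83e-05). Sf3b6 was at 30.7 and 33.0 CPM against 21.5 and 23.2 CPM (-0.51 ± 0.0953, adjusted p = 0.00136). Plrg1 was at 73.9 and 76.7 CPM against 57.3 and 60.9 CPM (-0.35 ± 0.0662, adjusted p = 0.00151). The treated libraries of all 3 lay below their controls. Snrnp40 was at 96.5 and 92.9 CPM against 80.1 and 74.6 CPM (-0.29 ± 0.0635, adjusted p = 0.00484). Prpf6 was at 174 and 165 CPM against 141 and 142 CPM (-0.26 ± 0.0578, adjusted p = 0.00568). Sf3b2 was at 412 and 366 CPM against 329 and 320 CPM (-0.26 ± 0.0597, adjusted p = 0.00672). The falls of these 3 genes were each under 0.30. Snrpe was at 102 and 82.9 CPM against 67.4 and 69.5 CPM (-0.44 ± 0.103, adjusted p = 0.00846). Snrnp200 was at 492 and 528 CPM against 437 and 410 CPM (-0.27 ± 0.0645, adjusted p = 0.00987). Lsm4 was at 138 and 96.5 CPM with DMSO against 151 and 157 CPM with dTAG-13 (0.39 ± 0.108, adjusted p = 0.0242), and without DMSO replicate 2 its change was 0.15 and not called (adjusted p = 0.149). Without DMSO replicate 1 the Lsm4 change was 0.68, and DESeq2 did not call it (adjusted p = 0.0619). Lsm2 was at 39.3 and 35.7 CPM against 27.5 and 31.2 CPM, and Snrpc at 84.2 and 88.8 CPM against 72.5 and 73.1 CPM. Both fell, as did Snrpd1, Snrnp27 and Sf3a1, by 0.19 to 0.36 over the 5 genes. The count of 13 rested on single libraries: it was 8 without DMSO replicate 1, 18 without DMSO replicate 2 by the same test, 6 without dTAG-13 replicate 1 and 5 without dTAG-13 replicate 2. The count of 3 was 0 without dTAG-13 replicate 1 and 0 without dTAG-13 replicate 2. Only Snrpb, Sf3b6 and Plrg1 kept their calls under every alternative run.

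In the GABPB1 line 5 genes fell, Snrpb, Sf3b6, Plrg1, Lsm2 and Sf3a1, and 0 rose by the same edgeR test, where 5.46% of tested genes were called lower and 1.28% higher. At an unadjusted p under 0.05, 17 were lower and 1 higher, and DESeq2 also called 5 lower and 0 higher. The median change was -0.10 against -0.005 over all genes. All 5 were among the genes that fell in both other lines, an overlap that was not counted over all tested genes. Snrpb was at 250 and 253 CPM with DMSO against 190 and 204 CPM with dTAG-13 (-0.35 ± 0.0709, adjusted p = 0.00479). Plrg1 was at 87.3 and 87.8 CPM against 74.6 and 70.7 CPM (-0.27 ± 0.063, adjusted p = 0.0139). Sf3b6 was at 28.8 and 32.1 CPM against 22.6 and 24.4 CPM (-0.37 ± 0.089, adjusted p = 0.0161). Treated libraries lay below controls in each. Lsm2 was at 41.7 and 41.5 CPM against 30.8 and 34.9 CPM (-0.34 ± 0.0828, adjusted p = 0.0182). Sf3a1 was at 350 and 339 CPM against 300 and 294 CPM (-0.21 ± 0.0593, adjusted p = 0.0384). Fitting these 4 libraries alone gave 19 lower and 2 higher, while the lower count with a library left out was 1 (without DMSO replicate 1), 0 (without DMSO replicate 2 or dTAG-13 replicate 1) or 2 (without dTAG-13 replicate 2).

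The response of the GABPA line was larger than that of the GABPB1/GABPB2 line for most of the 28 genes that fell in the GABPA line. Picking these 28 by that fall favours a larger response there, so the counts over all 51 genes follow. The difference of the responses, tested as an interaction term, was negative for 17 of the 51 genes and positive for 2, where 10.7% of all tested genes were called negative and 10.1% positive and the median difference was -0.16 against 0.035. Sf3b6 had the largest difference (-1.40 ± 0.137, adjusted p = 1.44e-06), followed by Snrnp27 (-1.19 ± 0.131, adjusted p = 5.28e-06), Snrpb (-1.06 ± 0.104, adjusted p = 1.52e-06) and Snrnp200 (-1.02 ± 0.0929, adjusted p = 7.14e-07). Prpf18 fell by 0.82 in the GABPA line but stood at 47.4 and 49.8 CPM with DMSO and 45.7 and 46.2 CPM after dTAG-13 in the GABPB1/GABPB2 line, a difference of -0.74 ± 0.122 (adjusted p = 0.000324). Sf3b4 likewise stood at 142 and 132 CPM against 127 and 118 CPM there (difference -0.61 ± 0.0892, adjusted p = 0.000107). In the GABPB1/GABPB2 line Snrnp27 was at 25.5 and 22.8 CPM against 18.8 and 19.7 CPM, groups that lay apart by less than in the GABPA line. Snrpe, Lsm2 and Snrpc differed by -0.88, -0.70 and -0.46. Prpf39 rose more in the GABPA line, by a difference of 0.53 ± 0.118. The difference for Lsm4, 0.51 ± 0.15, was 0.17 without GABPB1/GABPB2-line DMSO replicate 1. It was not called by DESeq2 (adjusted p = 0.102) and kept its call only without GABPA-line dTAG-13 replicate 2 or GABPB1/GABPB2-line DMSO replicate 2 among the libraries left out (adjusted p = 0.0607 to 0.193 without the others). Because the lines also differed in DMSO, the difference in response and the difference in starting level cannot be told apart. Sf3b6 started higher in the GABPA line, at 66.5 and 62.5 CPM against 30.7 and 33.0 CPM in the GABPB1/GABPB2 line. Snrnp200 started lower there, at 319 and 355 CPM against 492 and 528 CPM. Gabpa mRNA also started lower in the GABPA line, as given above.

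Newly made RNA of 5 genes was already lower after 1 h of dTAG-13: Snrpb, Snrpe and Snrpd2 of the Sm ring, Sf3b6 of U2 and Snrnp27 of the tri-snRNP. No gene was called higher at 1 h. In all tested genes, 1.72% were called lower and 0.0567% higher by edgeR at 1 h, and at an unadjusted p under 0.05 there were 12 lower and 1 higher of the 51. DESeq2 called 3 lower and 0 higher. The median change was -0.105, against -0.003 over all genes. Snrpb lies on chromosome 2 (130013555 to 130021323, minus strand, mm39), Snrpe on chromosome 1 (133531609 to 133538029, minus strand), Snrpd2 on chromosome 7 (18883647 to 18887467, plus strand), Sf3b6 on chromosome 12 (4867544 to 4877659, plus strand) and Snrnp27 on chromosome 6 (86652133 to 86661504, minus strand).

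Snrnp27 had the largest early change. Its converted reads were at 142 and 110 CPM with DMSO at 1 h, against 55.5 and 44.1 CPM with dTAG-13 (-1.32 ± 0.218, adjusted p = 0.000971). Snrpb was at 389 and 336 CPM against 168 and 186 CPM (-1.03 ± 0.162, adjusted p = 0.000553), and Snrpe at 160 and 138 CPM against 77.4 and 67.3 CPM (-1.03 ± 0.2, adjusted p = 0.00481). Treated libraries were below controls in each of these. Snrpd2 was at 52.8 and 51.7 CPM against 21.9 and 28.4 CPM (-1.06 ± 0.261, adjusted p = 0.0309). Sf3b6 was at 80.8 and 94.5 CPM against 46.4 and 45.2 CPM (-0.94 ± 0.238, adjusted p = 0.0394). The count of 5 was 2 without DMSO replicate 1, without dTAG-13 replicate 1 or without dTAG-13 replicate 2, and 3 without DMSO replicate 2. Sf3b6 and Snrpd2 were called under none of these 4 fits, nor by DESeq2 (adjusted p = 0.0778 and 0.102), and Snrpe kept its call only without DMSO replicate 2.

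At 2 h and 4 h, which share their DMSO libraries, the same 5 genes were called lower. At 2 h edgeR called 5 lower and 0 higher, where 3.21% and 0.145% of all tested genes were called. At an unadjusted p under 0.05 there were 11 lower and 3 higher, and DESeq2 called 5 and 0. At 4 h edgeR called 6 lower and 0 higher, where 3.91% and 0.113% of all genes were called, with 11 and 2 at an unadjusted p under 0.05 and 5 and 0 by DESeq2. Snrnp27 was at 171 and 200 CPM with DMSO, at 65.0 and 69.2 CPM at the 2 h time and at 40.5 and 50.5 CPM at 4 h (-1.47 ± 0.191 and -2.02 ± 0.206). Sf3b6 was at 194 and 176 CPM with DMSO, at 86.5 and 72.8 CPM at 2 h and at 71.1 and 85.6 CPM at 4 h (-1.21 and -1.23). Snrpd2 was at 111 and 97.9 CPM with DMSO, at 52.7 and 51.4 CPM at 2 h and at 53.3 and 46.8 CPM at 4 h (changes of -1.0 and -1.06). All treated libraries of these 3 genes were under their controls. Snrpb was at 254 and 245 CPM with DMSO, at 156 and 150 CPM at 2 h and at 109 and 128 CPM at 4 h (-0.70 and -1.07). Snrpe was at 290 and 217 CPM with DMSO, at 153 and 138 CPM at 2 h and at 126 and 132 CPM at 4 h (-0.80 and -0.97). Prpf18 was also called at 4 h, at 53.4 and 64.3 CPM with DMSO against 30.6 and 33.7 CPM with dTAG-13 (-0.87 ± 0.248, adjusted p = 0.0475), a call that was lost by DESeq2 (adjusted p = 0.131) and without any 1 of its 4 libraries (0.0556 to 0.288). Snrpd2 lost its 4 h call without dTAG-13 replicate 2 (adjusted p = 0.0583). At 2 h, Snrpb and Snrpe dropped out without DMSO replicate 1 (adjusted p = 0.0526 and 0.148) and without dTAG-13 replicate 2 (0.0935 and 0.0902), leaving 3, and Snrpb also without dTAG-13 replicate 1 (0.055). Without DMSO replicate 1, 1 gene was called higher at 2 h. Scaling the converted reads to all reads of a library, in place of the converted reads alone, moved the median of all genes to -0.117 at 1 h, -0.133 at 2 h and -0.232 at 4 h, and gave 6, 7 and 11 lower calls.

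**Figure D3:**
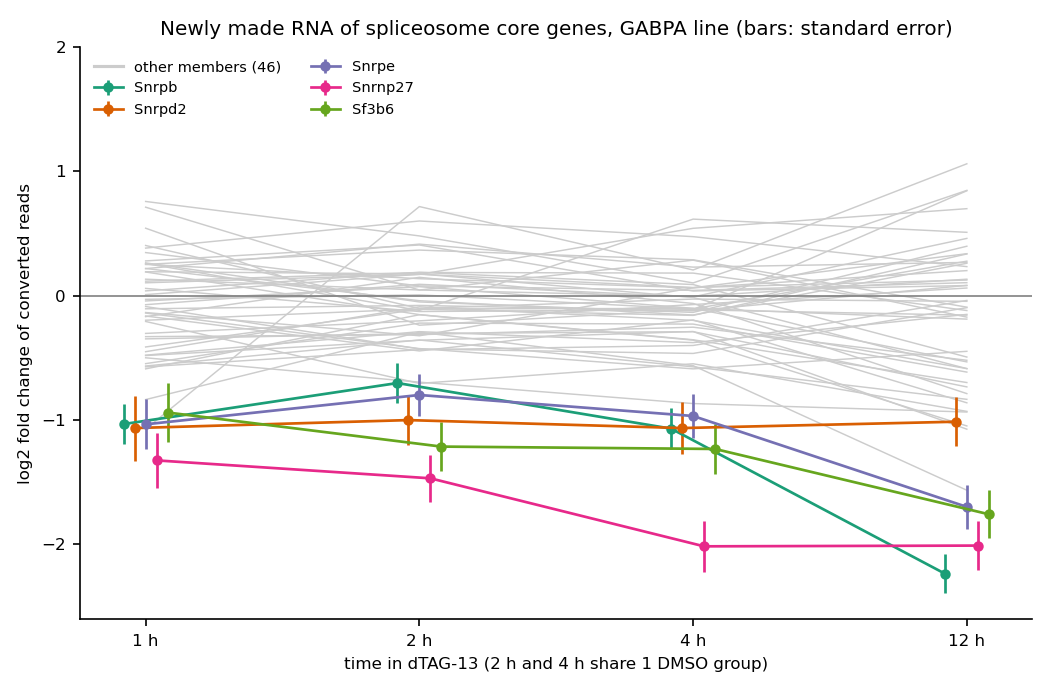
Log2 fold change of converted reads (newly made RNA) in the GABPA line at 1, 2, 4 and 12 h of dTAG-13 for the 5 genes called lower at each time, with standard errors, and for the other 46 genes (grey lines); time is spaced evenly, not to scale. The 5 coloured genes lie between -0.70 and -2.02 from 1 h to 4 h.

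In all 5 early genes the converted shares of the groups lay apart at 1 h. These genes were picked by a fall of the same converted reads, so this follows largely from that choice and adds no evidence. The share of all genes whose converted shares lie apart was not counted. All reads overlapped in Snrpb and Snrpe and were slightly lower without overlap in the other 3. At 1 h the share of converted reads in Snrpb was 3.86% and 3.96% in DMSO and 1.91% and 1.78% after dTAG-13, while all its reads stood at 543 and 506 CPM and at 491 and 523 CPM, ranges that overlap. In Snrpe the share was 2.99% and 3.55% against 1.68% and 1.23%, with all reads at 288 and 232 CPM against 257 and 273 CPM. All reads stood at 242 and 241 CPM against 216 and 209 CPM in Snrnp27, at 140 and 133 CPM against 120 and 127 CPM in Sf3b6, and at 185 and 182 CPM against 181 and 176 CPM in Snrpd2. These differences of all reads were not tested. At 12 h all reads of Snrpb were at 596 and 565 CPM with DMSO against 132 and 92.0 CPM with dTAG-13, whereas the converted share was 10.4% and 9.67% against 10.7% and 11.6%. In Snrpb the levels lay far apart, and the treated shares were slightly above the controls. Sf3b6 had all reads at 189 and 183 CPM against 41.5 and 50.7 CPM at 12 h, with a converted share of 13.1% and 12.6% against 14.5% and 16.7%. In Snrnp27 the 12 h shares overlapped, at 10.9% and 9.75% against 12.2% and 9.37%. In Snrpe and Snrpd2 they stayed lower without overlap, at 9.45% and 8.55% against 7.60% and 6.54%, and at 6.10% and 4.83% against 3.98% and 3.70%. The converted share of the 51 genes in DMSO had a median of 3.91% at 1 h, against 6.23% over all genes with at least 100 reads in both libraries, and of 12.44% against 16.24% at 12 h. The sources used here do not give the labelling time. All reads of SLAM-seq are 3′-end reads per gene, scaled here to reads in genes.

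**Figure D4:**
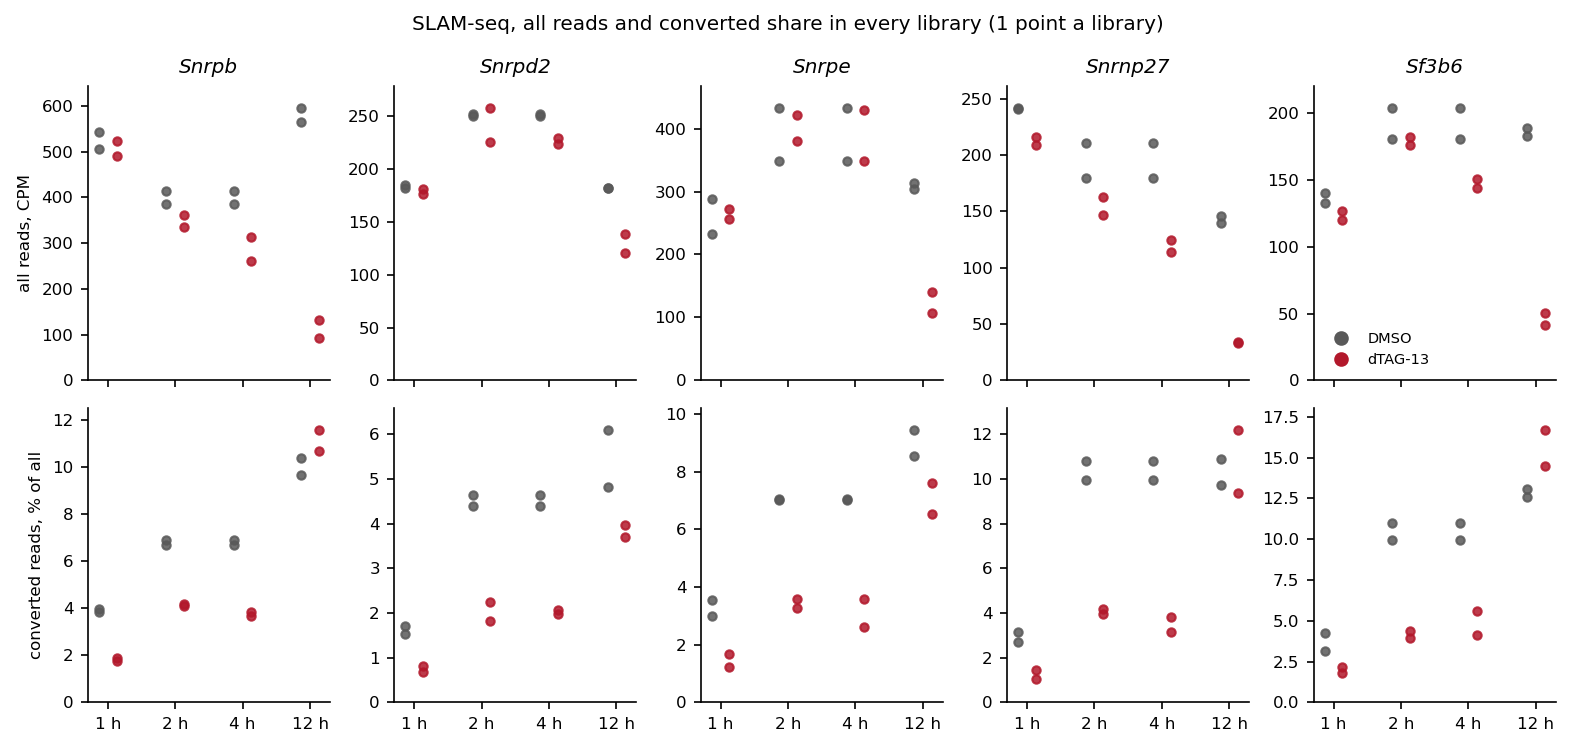
All SLAM-seq reads (top row, CPM) and the percentage of them that carry conversions (bottom row) for the 5 early genes in every library of the GABPA line, DMSO in grey and dTAG-13 in red; 1 point is 1 library, and the DMSO libraries of 2 h are drawn again at 4 h. In the Snrpb panels the share separates the groups at 1 h (3.86% and 3.96% against 1.91% and 1.78%). All reads separate them at 12 h (596 and 565 against 132 and 92.0 CPM). The genes were picked by their converted reads, so shares that lie apart at 1 h follow largely from that choice.

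By 12 h, 21 genes were lower in newly made RNA and 2 higher, where 18.3% and 12.3% of all tested genes were called, and the median change was -0.15 against 0.04. Snrpb was at 491 and 429 CPM with DMSO against 105 and 89.0 CPM with dTAG-13 (-2.23 ± 0.159, adjusted p = 1.77e-10). It was also the 1 gene whose 12 h change differed from its 1 h change (difference -1.20 ± 0.224, adjusted p = 0.00188). Of all tested genes, 4.70% had a more negative and 2.14% a more positive change at 12 h. In DMSO 5.44% and 6.08% of all reads were converted at 1 h, against 14.12% and 13.99% at 12 h. The labelled RNA of the 2 times was thus not alike, and a change of response over time cannot be told apart from this. No gene was called with a more positive change by edgeR or DESeq2 (0 each), and at an unadjusted p under 0.05 there were 11 more negative and 1 more positive. The count of 1 was 2 without dTAG-13 replicate 2 of 12 h or dTAG-13 replicate 1 of 1 h, and without dTAG-13 replicate 1 of 12 h 1 gene was more positive. Snrnp27 fell by 2.01 ± 0.199, Sf3b6 by 1.76 ± 0.195, Snrpe by 1.70 ± 0.177 and Snrpd2 by 1.01 ± 0.196. Plrg1, not called at 1, 2 or 4 h, was at 166 CPM in both DMSO libraries and at 57.5 and 54.4 CPM after dTAG-13 (-1.56 ± 0.185, adjusted p = 5.58e-07). Lsm2 and Snrnp40 fell by 1.05 and 1.07, and Bcas2, which was not called in RNA-seq, by 0.59 ± 0.176 (adjusted p = 0.0137), a call that needed DMSO replicate 1 (adjusted p = 0.129 without it) and dTAG-13 replicate 2 (0.141). Without DMSO replicate 1 the count of 21 was 12.

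Of the 28 genes lower in RNA-seq at 12 h, 20 were lower in newly made RNA at that time (71.4% of the 28 and 95.2% of the 21). The same overlap was not counted over all tested genes, so it is not shown to be particular to these genes. In newly made RNA DESeq2 did not call Lsm8, Prpf31, Prpf38a, Snrpa or Snrpd1 (adjusted p = 0.0553 to 0.12). Prpf6 was the gene called in opposite directions. It was lower in RNA-seq but higher in converted reads, at 272 and 300 CPM with DMSO against 370 and 563 CPM with dTAG-13 (0.70 ± 0.176, adjusted p = 0.00396), but without dTAG-13 replicate 2 the change was 0.43 and not called (adjusted p = 0.0899). Prpf6 shares 3995 bases with Samd10 and 936 bases with Zfp512b on the other strand, and Samd10 itself was lower in RNA-seq (-1.16) and in converted reads (-1.39). The mean converted share of Prpf6 in DMSO at 1 h, 19.67%, was the highest of the 51 genes. Snrnp70 rose in converted reads, which were 35.6 and 38.3 CPM with DMSO and 70.3 and 61.8 CPM with dTAG-13 (0.84 ± 0.233, adjusted p = 0.00795), and was not called in RNA-seq. Its adjusted p was 0.0615 without DMSO replicate 1 and 0.0524 without dTAG-13 replicate 1. Sf3b4 and Snrpc, both lower in RNA-seq, had 62 to 149 and 19 to 47 converted reads per 12 h library and changes of 0.46 ± 0.352 and 0.34 ± 0.439, neither called. Lsm4 and Prpf39, which rose in RNA-seq, were not called in converted reads, with changes of 0.23 ± 0.168 and 0.105 ± 0.173.

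**Figure D5:**
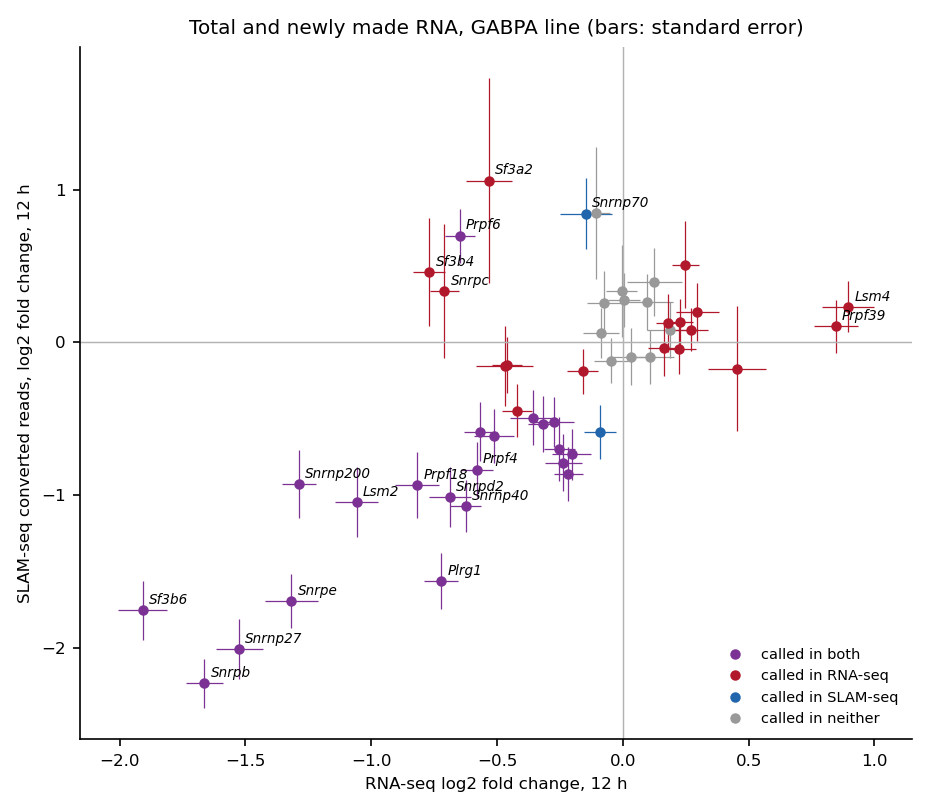
RNA-seq change (x axis) against the change of SLAM-seq converted reads (y axis) at 12 h in the GABPA line for the 51 genes, both as log2 fold changes with standard errors; colours mark the assays in which a gene was called. In the plot 21 genes are called in both assays, 17 in RNA-seq alone, 2 in SLAM-seq alone and 11 in neither, and Prpf6 is the gene called in both assays in the upper left, where Sf3a2, Sf3b4 and Snrpc (called in RNA-seq alone) and Snrnp70 (called in SLAM-seq alone) also lie.

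Some of these genes share a start region with a gene on the other strand. A divergent start within 1000 bases was found for 15 of the 51 genes, and 12 of the partners were tested. Of these partners 4 were lower, 5 higher and 3 not called in RNA-seq of the GABPA line, where 21.9% of all tested genes were called lower and 24.6% higher. Of the 8 members of such pairs that fell, 3 had a partner that fell and 3 a partner that rose. An example of the latter is Snrpd2, which fell by 0.69 while Qpctl, whose start lies 431 bases away on the other strand, rose by 0.40. In total 16 of the 51 genes overlap another gene.

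The proteins that build and work with the core particles changed in part in the same line at 12 h. The shares to read these counts against are the 21.9% of all tested genes called lower and the 24.6% called higher. Of 22 genes of the SMN complex and snRNP assembly, 11 fell, 4 rose and 7 were not called (median log2 change -0.20). The genes with the smallest p-values were Clns1a (-2.16 ± 0.068), which presents Sm proteins for assembly, Smn1 (-1.04 ± 0.0752), the core of the SMN complex, Tgs1 (-1.19 ± 0.112), which caps snRNAs, and Strap (-0.67 ± 0.0659). Clns1a was called lower in newly made RNA at 1 h (-0.92 ± 0.204, adjusted p = 0.014), as was Phax, an export adaptor of snRNAs (-0.89 ± 0.191, adjusted p = 0.0108). Of 24 other snRNP proteins and partners of U1, U2 and U5, 13 fell and 5 rose (median -0.17), among them Snu13 (-1.46 ± 0.0669), which binds U4, Smu1 (-1.15 ± 0.0687), Rbm17 (0.86 ± 0.0619) and Sart1 (-0.92 ± 0.0836). Of 20 further Prp19-complex and catalytic-step factors, 9 fell and 3 rose (median -0.18), led by Cwc15 (-2.67 ± 0.0956), Crnkl1 (-2.27 ± 0.0893), Ppil1 (-1.44 ± 0.0696) and Ppie (-0.86 ± 0.0757). Of 9 tested minor spliceosome genes, 4 fell, with Zcrb1 at -1.63 ± 0.126 and Scnm1 at -1.17 ± 0.0919, and 3 rose, among them Zrsr2 (0.33 ± 0.0686).

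Against the same shares of all genes, 21.9% lower and 24.6% higher, the counts of helicases and SR genes were near the background. Of 12 spliceosomal RNA helicases, 3 fell and 3 rose (median 0.06), with Dhx8, which releases the spliced mRNA, at -1.35 ± 0.0597 and Dhx35 at 0.78 ± 0.0659. Of 21 SR proteins and their partners, 4 fell and 7 rose (median 0.055), including Son (0.65 ± 0.0669) and the kinase Clk2 (-0.75 ± 0.0826). Of 22 hnRNP proteins, 5 fell, 1 rose and 16 were not called (median -0.03), with Hnrnpll at -0.62 ± 0.0664. In newly made RNA at 12 h, where 18.3% of all genes were called lower and 12.3% higher, 1 hnRNP gene fell and 6 rose (median 0.18). Of 9 genes of the exon junction complex, which marks spliced mRNA, 3 fell and 1 rose (median -0.05), and of 7 LSm genes outside the core ring, 3 fell and 0 rose (median -0.08), led by Lsm1 (-0.77 ± 0.0806), part of the cytoplasmic mRNA decay ring. The median of all tested genes in that comparison was 0.062. No difference between these lists was tested.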

How the data were processed

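RNA-seq (12 libraries) and SLAM-seq (14 libraries) were analysed, and the 66 samples of other assays were not analysed here. RNA-seq tables hold expected counts and TPM values that the authors made, with Trim Galore 0.6.7, cutadapt 3.5, STAR 2.7.11a and RSEM 1.3.1 among the tools in the submitters' processing notes. SLAM-seq tables hold whole-number counts of reads and of reads with conversions that the authors made with slamdunk 0.4.3, per the file headers, over gene intervals of mm39. The sources used here do not give strand handling. Each assay was fitted as 1 model over all its groups with edgeR 4.0.16 in R 4.3.3: expected counts were rounded, genes were kept with filterByExpr (count minimum 10, total minimum 15), libraries were scaled by TMM, and the quasi-likelihood test was adjusted by Benjamini-Hochberg over 16396 (RNA-seq) or 15887 (SLAM-seq) genes, with calls at 0.05. The SE is the absolute log2 change divided by the root of the F statistic. TPM served only to describe levels. CPM were computed from counts in genes and TMM-scaled library sizes. Alternatives were DESeq2 1.42.0, its size factors in edgeR, no filter, the libraries of a comparison alone, a replicate block, scaling to all reads (SLAM-seq) and leaving out each library. Values in every library are given for up to 20 genes called in the GABPA line and up to 10 called in SLAM-seq at 1 to 4 h, in the other lines, or differing between lines, by smallest p, and up to 4 genes of each other list. The code was tested on simulated data. The members and lists were chosen with earlier results of these data known.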

Additional observations from a re-analysis of the deposited data

Results flagged for a closer look

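For 19 of the 51 genes the 12 h RNA-seq response of the GABPA line was not that of the GABPB1/GABPB2 line, by the interaction term of edgeR's fit (adjusted p under 0.05). Differences are given as the log2 change in the GABPA line minus that in the other line. Of these 19 calls, 4 were lost under at least 1 alternative run: Snrpd1, Sf3a1, Prpf31 and Lsm4. In the fits that lost them, the difference was -0.28 to -0.34 for Snrpd1, -0.21 to -0.31 for Sf3a1 and -0.28 for Prpf31. Among Sm genes they were -1.06 for Snrpb, -0.88 for Snrpe, -0.48 for Snrpd2 and -0.31 for Snrpd1. Among U2 genes they were -1.40 for Sf3b6, -0.61 for Sf3b4 and -0.27 for Sf3a1. Among tri-snRNP genes they were -1.19 for Snrnp27, -1.02 for Snrnp200, -0.74 for Prpf18, -0.41 for Prpf4, -0.39 for Prpf6, -0.33 for Snrnp40 and -0.29 for Prpf31. Snrpc differed by -0.46, Lsm2 by -0.70 and Plrg1 by -0.37, and the positive differences were 0.53 for Prpf39 and 0.51 for Lsm4, the latter 0.17 and not called without GABPB1/GABPB2-line DMSO replicate 1 (adjusted p = 0.193). In SLAM-seq the 12 h change of Snrpb differed from its 1 h change by -1.20, between times at which the converted share in DMSO also differed.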

How the results depend on the processing

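No call among the 51 genes reversed its direction under any alternative run. Of 118 calls over the 9 comparisons, 66 were kept under every alternative and 52 were lost under at least 1. Among those lost were 10 of 38 in the GABPA line, 13 of 16 in the GABPB1/GABPB2 line and 5 of 5 in the GABPB1 line. Also lost were 4 of 19 differences between the GABPA and GABPB1/GABPB2 lines and 13 of 23 calls in SLAM-seq at 12 h. With only the libraries of a comparison in the fit, the GABPB1/GABPB2 line gave 5 lower in place of 13 and 0 higher in place of 3, and the GABPB1 line gave 19 lower in place of 5 and 2 higher in place of 0. In the same setting the difference of lines gave 1 positive in place of 2, SLAM-seq at 2 h gave 3 lower in place of 5, and the difference of 12 h and 1 h gave 2 negative in place of 1. DESeq2 gave 3 lower in place of 5 at 1 h and 1 positive difference of lines in place of 2. Without the filter the difference of 12 h and 1 h gave 2 negative, and scaling to all reads gave 11 lower at 4 h in place of 6. The replicate block gave 1 higher at 2 h in place of 0. The labels give the libraries a number and nothing else to pair them, and with 2 pairs a comparison the correlations of same-numbered deviations, -0.03 to 0.29, do not settle whether they are paired. Leaving out 1 library gave, for lower and higher, 22 to 28 and 7 to 9 in the GABPA line, 5 to 18 and 0 to 4 in the GABPB1/GABPB2 line, 0 to 2 and 0 to 0 in the GABPB1 line, and 16 to 24 and 1 to 3 for the difference of the GABPA and GABPB1/GABPB2 lines. In SLAM-seq it gave 2 to 3 and 0 to 0 at 1 h, 3 to 5 and 0 to 1 at 2 h, 4 to 5 and 0 to 0 at 4 h, 12 to 16 and 1 to 2 at 12 h, and 1 to 2 and 0 to 1 for 12 h against 1 h. A comparison left with 1 library in a group assumes that it varies like the others. With 0.937 to 4.249 M converted reads a library, SLAM-seq changes have larger standard errors than RNA-seq changes at 12 h for Snrpb, Snrpe, Snrpd2, Sf3b6 and Snrnp27.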
